A study of Rattus norvegicus with 48 samples.

Results

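The serum small RNA profile of diabetic rats given an antibody against sclerostin was compared with that of diabetic rats given placebo. The comparison used 9 of the 48 libraries of the series, chosen by their labels as serum, group ZDF, and treatment anti-sclerostin (n = 4) or placebo (n = 5). Reads counted on each mature rat miRNA were the measurement, and 763 mature miRNAs were listed in each library. All 9 animals were male ZDF fa/fa rats, homozygous for a mutation of the leptin receptor. They carried a surgical subcritical defect at the femur midshaft and ate a chow rich in fat and carbohydrate, so both groups shared these conditions. The treatment ran for 12 weeks before the serum was drawn, from the same starting age in both groups. The antibody was injected subcutaneously, with water or vehicle as placebo. The study lists daily injections for placebo and fewer per week for the antibody, so the injection schedules also differed. Anti-sclerostin (n = 4) and placebo (n = 5) WT rats, Zucker lean ZDF +/+ animals with the same defect and the same labelled time, served as a side comparison. The study's own animal table credits the placebo and the anti-sclerostin rats to different earlier experiments, so treatment and source experiment cannot be told apart in these libraries. Rats are numbered below within their group, in the order of deposit, and the numbers pair no animals.

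Sclerostin is a protein secreted by osteocytes that binds the Wnt co-receptors LRP5 and LRP6 and so restrains bone formation. Antibodies that capture it release Wnt signaling in osteoblasts and raise bone mass. MiRNAs in serum are carried in vesicles, lipoproteins and protein complexes, and many are released mainly by blood cells, endothelium, muscle and liver. A mature miRNA recognizes its targets mainly through its seed, bases 2 to 8, so miRNAs with the same seed are grouped as a family.

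The mature sequences below, from RefSeq on GRCr8, are those of 5 of the 7 miRNAs that passed the test described further on, with 3 relatives in the fit that share a seed with them. They show that the miRNAs that rose belong to different seed families. Capitals mark the seed. Of the 763 listed miRNAs, 686 matched a RefSeq sequence by name. No sequence is printed for miR-301b-3p, which shares the seed of miR-130a-3p but was too low for the fit, or for miR-301a-3p.
miR-126a-3p: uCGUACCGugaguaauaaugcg
miR-24-3p: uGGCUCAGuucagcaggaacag
miR-29b-3p: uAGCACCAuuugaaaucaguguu
miR-29a-3p: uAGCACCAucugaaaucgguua
miR-29c-3p: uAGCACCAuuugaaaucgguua
miR-130a-3p: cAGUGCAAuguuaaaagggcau
miR-130b-3p: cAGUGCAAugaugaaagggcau
miR-138-5p: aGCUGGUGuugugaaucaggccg

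MiR-126a-3p lies at chr3:29813219-29813240 on the plus strand, within the coordinates of Egfl7, an endothelial gene. MiR-24-3p has a copy at chr17:1818672-1818693 on the minus strand, within Aopep, and a copy at chr19:40859481-40859502 on the minus strand, outside any other annotated gene of the table used. MiR-29b-3p is encoded at chr13:109098882-109098904 (plus strand, within a long non-coding RNA) and chr4:60618342-60618364 (minus strand). MiR-130a-3p lies at chr3:90229240-90229261 on the minus strand. MiR-138-5p is encoded at chr8:131178456-131178478 (plus strand, within long non-coding RNAs) and chr19:10680184-10680206 (minus strand, within the coordinates of Slc12a3). Copies with the same mature sequence cannot be told apart by reads. MiR-29a-3p and miR-29c-3p differ at 1 of 22 aligned bases, which is within the mismatch the authors' mapping allowed, so their counts may share reads. MiR-29b-3p differs from miR-29a-3p at 4 of 22 bases and from miR-29c-3p at 3, and miR-130a-3p differs from miR-130b-3p at 2.

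The libraries held 28015 to 150605 miRNA reads under anti-sclerostin and 48637 to 124422 under placebo, which limits what could be detected for miRNAs with few reads. Between 251 and 339 miRNAs were detected per treated library and between 279 and 329 per placebo library. None of 8 library measures (depth, miRNA share, control reads, detected miRNAs, share of the top 5 miRNAs and a hemolysis ratio among them) differed between the groups (exact permutation test, two-sided, Benjamini-Hochberg adjusted p of 0.603 to 0.905). Placebo log2 profiles correlated, across miRNAs, with the mean of the rest of their group at 0.956 to 0.969, against 0.840 to 0.926 for the treated libraries. The ranges are not like for like, because the treated mean was over fewer libraries and the smallest libraries were treated ones. Treated rat 1 had both the fewest reads and the lowest correlation. The most abundant miRNAs were miR-191a-5p (12.6% of miRNA reads under placebo and 12.7% under anti-sclerostin), miR-486, miR-92a-3p, miR-16-5p and miR-21-5p. None of these 5 passed the test (FDR of 0.650 to 0.941).

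Under anti-sclerostin, 3 serum miRNAs were lower and 4 higher in ZDF rats at an FDR below 0.2, where FDR is the p-value of edgeR's quasi-likelihood test after Benjamini-Hochberg adjustment over all miRNAs tested. The 3 that fell were miR-143-3p and miR-145-5p, co-transcribed miRNAs of smooth muscle and other mesenchymal cells, and miR-126a-3p, the main endothelial miRNA. The 4 that rose were miR-24-3p, miR-29b-3p, miR-130a-3p and miR-138-5p. They were 7 of 130 miRNAs tested (5.38%), with 3.08% of the 130 higher and 2.31% lower. The 130 were left of 446 miRNAs with at least 1 read after removal of low counts and a floor of 234 CPM on the mean level, CPM being the read count scaled to the TMM-adjusted miRNA reads of the library. Without that floor, 2 of 158 (1.27%) passed, miR-126a-3p and miR-143-3p. At an unadjusted p below 0.05 there were 13 of 130 (10.0%), with 6.92% higher and 3.08% lower. The median log2 fold change over the 130 was 0.09. In 5 of the 130 (3.85%) the groups did not overlap, 4 of them higher under anti-sclerostin (3.08%) and 1 lower (0.769%). The p-values set the difference between groups against the spread between rats, and cannot part treatment from source experiment. A lower serum level cannot show whether fewer cells released the miRNA or each released less.

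**Figure D1:**
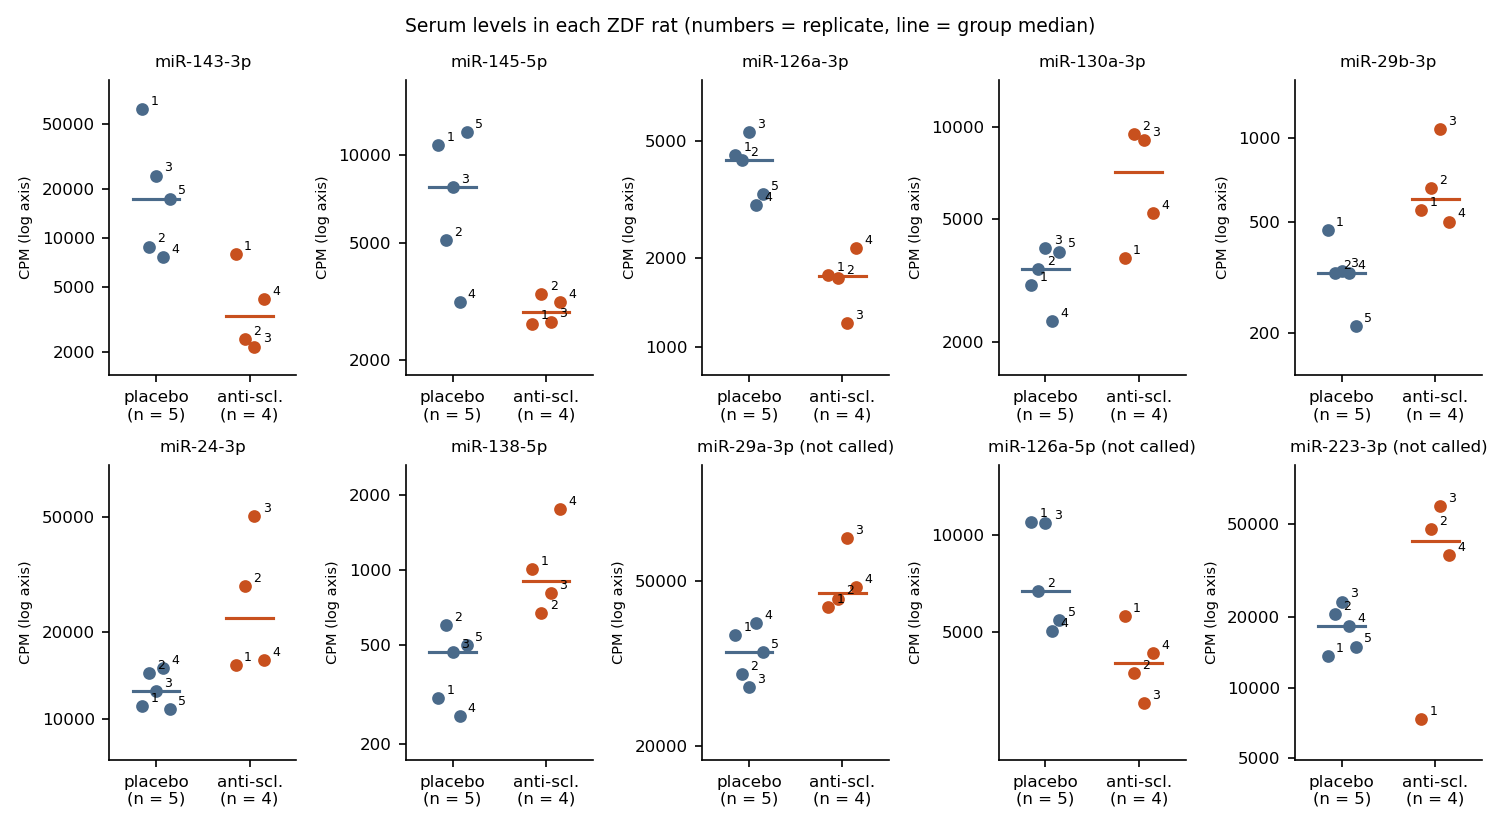
Level in CPM (log axis) of the 7 miRNAs that passed the test and of 3 that did not, in each placebo (blue, n = 5) and anti-sclerostin (orange, n = 4) ZDF rat, with the rat's number and the group median as a line. MiR-126a-3p is lower in every treated rat than in any placebo rat, and miR-24-3p, miR-29b-3p, miR-138-5p and miR-29a-3p are higher, while miR-143-3p, miR-145-5p and miR-130a-3p overlap between the groups.

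MiR-143-3p showed the widest change. It stood at 7952, 2412, 2162 and 4235 CPM in treated rats 1 to 4 and at 62066, 8862, 24132, 7628 and 17454 CPM in placebo rats 1 to 5. Placebo rats thus spanned a wide range, and treated rat 1 lay above placebo rat 4, the only overlap. The log2 fold change was -2.53 (SE 0.65, FDR 0.124 by edgeR), a 5.77-fold lower level, and the exact permutation p was 0.0317. Its share of the miRNA reads was 2.43% under placebo and 0.427% under anti-sclerostin. The change held without placebo rat 1, the highest animal, at -1.83 (SE 0.53, FDR 0.135 by edgeR).

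MiR-145-5p is made from the same primary transcript as miR-143-3p. Its level was 2662, 3360, 2702 and 3149 CPM in treated rats 1 to 4 and 10802, 5108, 7753, 3160 and 11980 CPM in placebo rats 1 to 5. The treated rats were close together, and placebo rat 4 alone reached down into their range. The log2 fold change was -1.38 (SE 0.40, FDR 0.186 by edgeR, exact permutation p 0.0317). The opposite arms were rare: miR-143-5p ranged from 0 to 14.4 CPM under anti-sclerostin and from 0 to 95.7 CPM under placebo, and miR-145-3p from 31.8 to 172.9 CPM and from 27.2 to 874.7 CPM. Both were removed as low counts before the fit, so no fold change is given for them. The summed level of these 4 smooth muscle markers was 4907 to 10787 CPM under anti-sclerostin and 10842 to 73824 CPM under placebo. The groups were parted only narrowly, by treated rat 1 and placebo rat 4. MiR-143-3p and miR-145-5p carried nearly all of the sum, so it repeats their values and adds no separate support.

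MiR-126a-3p, which sustains VEGF signaling in endothelial cells, was at 1763, 1716, 1208 and 2173 CPM in treated rats 1 to 4. Placebo rats 1 to 5 had 4475, 4296, 5354, 3024 and 3311 CPM, every value above every treated one. The log2 fold change was -1.26 (SE 0.32, FDR 0.124 by edgeR), and the exact permutation p of 0.0159 is the smallest that 4 against 5 rats allow. Its other arm, miR-126a-5p, was at 5601, 3740, 3010 and 4291 CPM against 10985, 6697, 10890, 5040 and 5435 CPM. Treated rat 1 overlapped placebo rats 4 and 5, and the difference of -0.91 (SE 0.35) did not pass (FDR 0.299 by edgeR). The other endothelial markers, miR-221-3p and miR-222-3p, averaged 2617 ± 1772 (SD, n = 4) and 337 ± 271 CPM under anti-sclerostin and 2095 ± 752 (SD, n = 5) and 228 ± 55.9 CPM under placebo, with FDR of 0.818 and 0.729 by edgeR. The summed level of the 4 endothelial markers overlapped between the groups (5352 to 11842 against 9807 to 19760 CPM). Thus 1 of 4 endothelial markers fell, where 2.31% of the 130 miRNAs tested did, and the list's median log2 fold change was -0.30 beside 0.09 over all 130 miRNAs tested.

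The miR-29 family, known to repress collagens and several Wnt antagonists in osteoblasts, had a higher summed level under anti-sclerostin, with 1 of 3 members passing. MiR-29b-3p was at 553, 660, 1081 and 502 CPM in treated rats 1 to 4 and at 468, 327, 333, 327 and 211 CPM in placebo rats 1 to 5. All treated rats exceeded all placebo rats, with placebo rat 1 closest. It rose by 1.09 on the log2 scale (SE 0.36, FDR 0.197 by edgeR, exact permutation p 0.0159). MiR-29a-3p, which carries most of the family's reads, was at 43077, 45253, 63354 and 48261 CPM against 37024, 29766, 27711, 39472 and 33682 CPM. It too did not overlap (exact permutation p 0.0159), but its change of 0.58 (SE 0.24) had an FDR of 0.325 by edgeR. MiR-29c-3p averaged 11908 ± 1782 CPM (SD, n = 4) against 9727 ± 2295 CPM (SD, n = 5), and its difference of 0.29 (SE 0.28) did not pass (FDR 0.670 by edgeR). The family's summed level was 55827 to 75456 CPM under anti-sclerostin and 37247 to 50430 CPM under placebo, without overlap.

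MiR-24-3p comes from the miR-23/27/24 clusters, which have been linked to the control of osteoblast differentiation. It was at 15350, 28886, 50318 and 15994 CPM in treated rats 1 to 4 and at 11148, 14477, 12513, 15078 and 10870 CPM in placebo rats 1 to 5. Treated rats 1 and 4 lay just above the highest placebo rat, and rats 2 and 3 far above. Its difference on the log2 scale was 1.11 (SE 0.36, FDR 0.197 by edgeR, exact permutation p 0.0159), and 0.63 (SE 0.32, FDR 0.760) without treated rat 3. The cluster partners did not pass: miR-27a-3p differed by 0.46 (SE 0.35, FDR 0.622 by edgeR). MiR-23a-3p averaged 17941 ± 4784 CPM (SD, n = 4) under anti-sclerostin and 18441 ± 5669 CPM (SD, n = 5) under placebo. MiR-27b-3p averaged 6157 ± 3987 and 6339 ± 1958 CPM, and miR-23b-3p 2885 ± 1911 and 2426 ± 1157 CPM. So 1 of the 5 measured members rose and the others overlapped between groups.

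MiR-130a-3p, which represses the anti-angiogenic homeobox genes GAX and HOXA5 in endothelial cells, was at 3734, 9476, 9051 and 5238 CPM in treated rats 1 to 4. Placebo rats 1 to 5 had 3051, 3439, 4039, 2329 and 3923 CPM. Treated rats 2, 3 and 4 were above all placebo rats, and treated rat 1 fell within their range. This gave a log2 fold change of 1.04 (SE 0.35, FDR 0.197 by edgeR, exact permutation p 0.0476). MiR-130b-3p, with the same seed, was at 657, 2498, 2321 and 1533 CPM against 692, 1082, 879, 776 and 1072 CPM. The pattern across rats resembled that of miR-130a-3p, with treated rat 1 below every placebo rat, and the difference of 0.97 (SE 0.39) had an FDR of 0.311 by edgeR. MiR-301a-3p averaged 1226 ± 502 CPM (SD, n = 4) against 1035 ± 367 CPM (SD, n = 5), a difference of 0.25 (SE 0.40, FDR 0.833 by edgeR). MiR-301b-3p was removed as a low count, at 53.0 to 107.7 CPM under anti-sclerostin and 19.1 to 101.7 CPM under placebo.

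MiR-138-5p, known as an inhibitor of osteoblast differentiation in mesenchymal stem cells, was at 1003, 668, 805 and 1755 CPM in treated rats 1 to 4. In placebo rats 1 to 5 it was at 305, 598, 467, 259 and 498 CPM. All treated values were higher, although treated rat 2 was close to placebo rat 2. MiR-138-5p rose by 1.29 on the log2 scale (SE 0.39, FDR 0.197 by edgeR, exact permutation p 0.0159), 2.45-fold. Among the 686 miRNAs with a matched sequence, no other shared its seed.

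**Figure D2:**
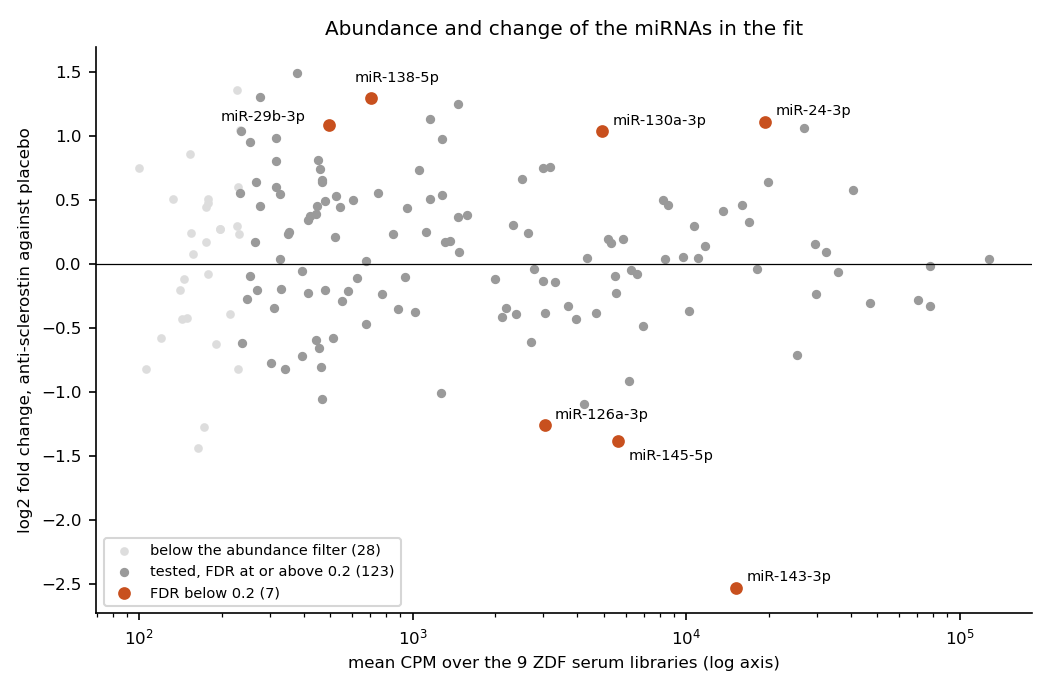
Log2 fold change under anti-sclerostin against the mean CPM (log axis) of the 158 miRNAs in the fit, with the 7 at FDR below 0.2 in orange and named, 123 tested and not passing in dark gray and 28 below the abundance floor in light gray. The named miRNAs span the range from miR-29b-3p, at a mean of 496 CPM, to miR-24-3p, at 19404 CPM, and miR-143-3p stands apart as the lowest point.

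Other miRNAs were close to the threshold. MiR-22-5p was at 138, 582, 636 and 279 CPM under anti-sclerostin and at 102, 158, 214, 150 and 230 CPM under placebo. Treated rat 1 lay within the placebo range, and the difference of 1.30 (SE 0.46) had an FDR of 0.224 by edgeR. MiR-339-5p was at 657, 3001, 3773 and 1170 CPM against 529, 958, 966, 1117 and 995 CPM, a difference of 1.25 (SE 0.47, FDR 0.287 by edgeR). MiR-223-3p, abundant in neutrophils and platelets and a regulator of osteoclast formation, was at 7364, 47651, 59613 and 36697 CPM against 13589, 20532, 23292, 18252 and 14966 CPM. Treated rats 2, 3 and 4 exceeded all placebo rats and treated rat 1 lay below all of them. The difference was 1.06 (SE 0.45, FDR 0.350 by edgeR), and 1.35 (SE 0.29, FDR 0.0510) without treated rat 1. MiR-223-3p passed in no other fit that left out 1 rat. With the hemolysis ratio as a covariate its difference was 0.19 (SE 0.51, FDR 0.916 by edgeR). Without treated rat 1, the library with the lowest depth, 32 miRNAs passed (17 higher, 15 lower), among them all 7 named above. Without any other rat 3 to 9 passed. Of the miRNAs described so far that did not pass over all rats, miR-126a-5p, miR-130b-3p, miR-29a-3p, miR-22-5p and miR-339-5p also passed without treated rat 1. Each of these passed in 1 to 3 of the 9 fits that left out a rat. With the hemolysis ratio as a covariate neither these nor miR-223-3p passed.

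Treated rats 1 and 4 differed from treated rats 2 and 3 in many other miRNAs. MiR-486, an erythroid miRNA, was at 157650, 19202, 18292 and 76822 CPM in treated rats 1 to 4. MiR-133a-3p, a miRNA of skeletal and heart muscle, was at 16318, 144, 191 and 5796 CPM. MiR-100-5p was at 761, 64.6, 42.4 and 724.5 CPM, and miR-218a-5p at 830, 7.18, 21.2 and 669 CPM. All 4 were high in rats 1 and 4 and low in rats 2 and 3. The liver miRNAs went the other way: miR-122-5p was at 242, 1615, 2384 and 139 CPM and miR-192-5p at 4875, 21873, 18705 and 3873 CPM. The placebo rats overlapped or lay between them, with 40779 to 134317 CPM of miR-486 and 1225 to 11331 CPM of miR-133a-3p. Rats 1 and 4 also had the smallest libraries, at 28015 and 33591 miRNA reads against 150605 and 96551 in rats 2 and 3. The part of depth or of blood cell and muscle RNA in these differences was not tested.

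**Figure D3:**
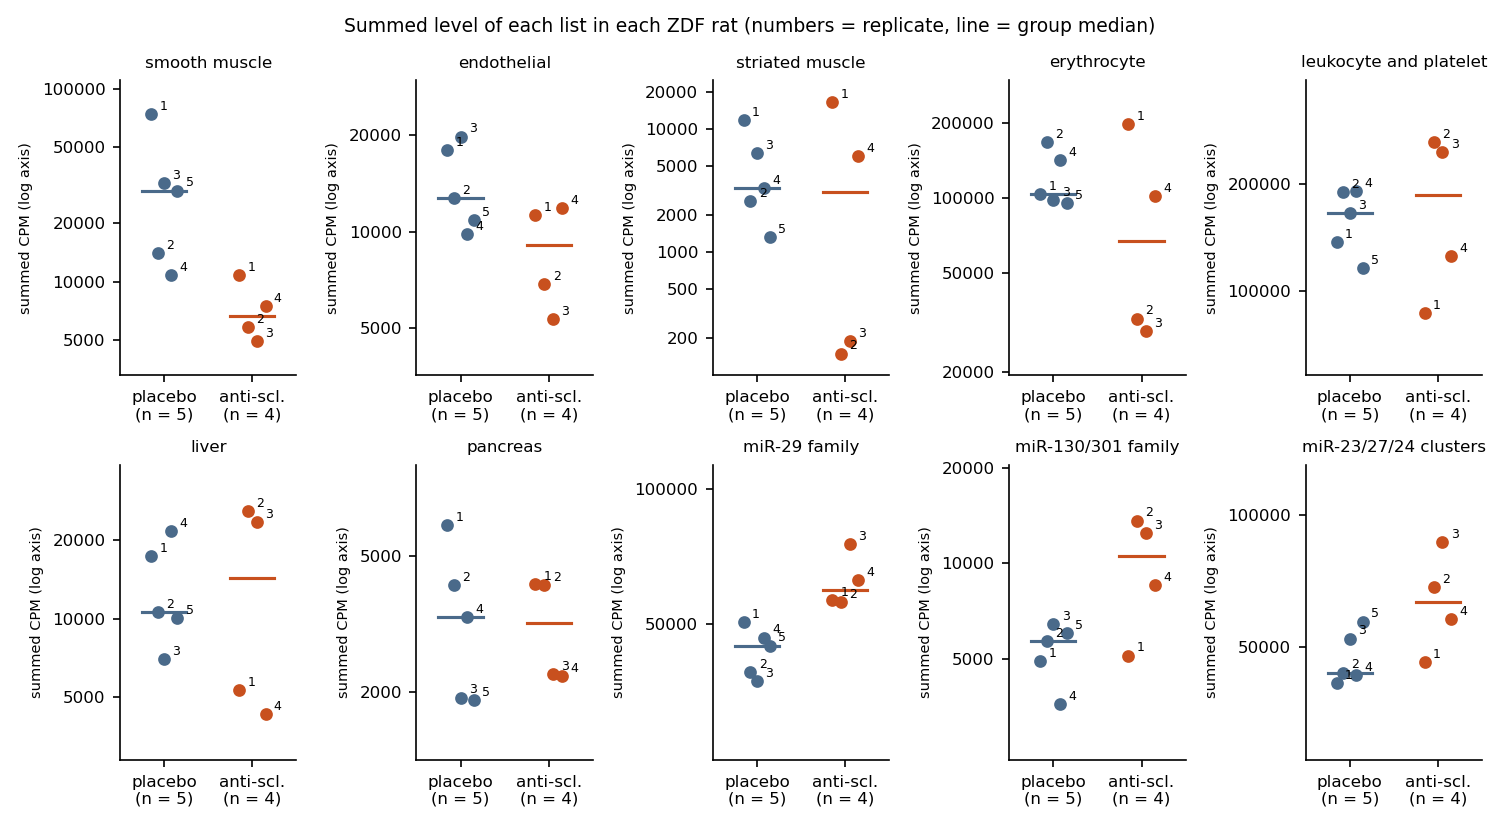
Summed level in CPM (log axis) of 7 cell type marker lists and 3 miRNA families in each placebo (blue, n = 5) and anti-sclerostin (orange, n = 4) ZDF rat, with the rat's number and the group median as a line. The smooth muscle sum is lower in all treated rats, with treated rat 1 just below placebo rat 4, and the miR-29 sum is higher. Treated rats 1 and 4 lie far from rats 2 and 3 in the striated muscle, erythrocyte and liver sums.

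Among markers of other sources, no member besides miR-143-3p, miR-145-5p and miR-126a-3p passed the test. None of the 4 erythrocyte markers (miR-451-5p, miR-144-3p, miR-144-5p and miR-486) passed. The fold changes of all 4 lay below 0, with a median of -0.57 on the log2 scale beside 0.09 over the 130 tested. Without treated rat 1, miR-451-5p (-1.21, SE 0.39, FDR 0.123 by edgeR) and miR-144-5p (-1.12, SE 0.41, FDR 0.158) passed. Neither passed in any other fit that left out 1 rat. The summed level of all 4 was 29186 to 197685 CPM under anti-sclerostin and 95517 to 167296 CPM under placebo. Of 7 leukocyte and platelet markers 6 were tested and none passed, and their sums overlapped (86465 to 262869 against 116071 to 191533 CPM). Of 5 liver markers 4 were tested, with sums of 4319 to 25900 against 7033 to 21725 CPM. The pancreatic list was carried by miR-375-3p, the only 1 of 4 members tested, and summed to 2229 to 4149 against 1895 to 6184 CPM. The striated muscle list was carried by miR-133a-3p, 1 of 6 members tested, and summed to 151 to 16664 against 1321 to 11799 CPM. The neural list was carried by miR-128-3p, which is not restricted to neurons. The neuronal miR-124-3p had 0 reads in all 9 libraries, and miR-9a-5p reached at most 47.5 CPM. A sign of red cell lysis, the log2 ratio between miR-451-5p and miR-23a-3p, was -0.93 to 1.60 under anti-sclerostin and -0.49 to 1.41 under placebo (difference -0.75, exact permutation p 0.270). Treated rat 1 had the highest ratio of the 9 libraries, and treated rats 2 and 3 the lowest, at -0.81 and -0.93. Fits without treated rat 1 thus leave out the treated library with the highest ratio.

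Several of the miRNAs that passed have known roles in bone. The lists below were chosen with earlier results of these data known, so their counts and medians are descriptions and no independent support. Of 16 regulators of Wnt signaling and osteoblast differentiation 12 were tested, and 3 rose (miR-24-3p, miR-29b-3p and miR-138-5p) and 1 fell (miR-145-5p), where 3.08% of all 130 rose and 2.31% fell. The fold changes of 9 of the 12 lay above 0 and of 3 below, beside 73 and 57 of the 130. Their median was 0.46 on the log2 scale, beside 0.09. Of 9 regulators of osteoclasts 7 were tested, 1 rose (miR-29b-3p) and 2 fell (miR-145-5p and miR-126a-3p), to be read against the same 3.08% and 2.31%. Their median log2 fold change was -0.04. MiR-21-5p, which promotes osteoclast formation, averaged 41525 ± 8503 CPM (SD, n = 4) against 51442 ± 15091 CPM (SD, n = 5) and did not pass (FDR 0.670 by edgeR). Of 8 let-7 and miR-98 members 5 were tested and none passed. MiR-98-5p did without treated rat 1 (-0.97, SE 0.42, FDR 0.199 by edgeR), and in no other fit that left out 1 rat. Of 7 markers of the osteoblast and chondrocyte lineage 2 were tested, miR-140-3p and miR-214-3p, and neither passed. MiR-199a-3p of that list, a miRNA of mesenchymal cells, lay below the abundance floor at 242, 50.2, 53.0 and 27.9 CPM against 387, 113, 214, 218 and 172 CPM. Treated rat 1 was the exception among low treated values, and the difference of -1.44 (SE 0.63) had an FDR of 0.440 over the 158 miRNAs in the fit. Without treated rat 1 it was -2.22 (SE 0.51, FDR 0.0510 by edgeR) and passed. Of the 9 fits that left out a rat, 2 tested miR-199a-3p and it passed in 1. With the hemolysis ratio as a covariate it was -0.93 (SE 0.54), and with extraction controls as size factors -0.82 (SE 0.79). It lay below the floor of both fits. With every miRNA of at least 1 read in the fit it passed (FDR 0.194 by edgeR).

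The study singled out 12 serum miRNAs as different between placebo ZDF and WT rats, so their choice used the same placebo rats. Of these, 9 were tested under anti-sclerostin and 1 passed, miR-145-5p. MiR-320-3p was at 12031, 27501, 12527 and 23350 CPM under anti-sclerostin and 18573, 14939, 16030, 9643 and 9550 CPM under placebo, with overlapping groups and a difference of 0.46 (SE 0.34, FDR 0.622 by edgeR). MiR-375-3p, a miRNA of pancreatic islets and pituitary, averaged 3145 ± 1103 CPM (SD, n = 4) against 3469 ± 1778 CPM (SD, n = 5). The hepatic miR-122-5p averaged 1095 ± 1092 CPM against 838 ± 480 CPM, and miR-802-5p 683 ± 606 against 846 ± 432 CPM. The treated and placebo ranges of these 3 overlapped.

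Set against placebo WT serum, 22 of 176 miRNAs (12.5%) differed in anti-sclerostin-treated ZDF serum, 14 higher (7.95%) and 8 lower (4.55%). That comparison uses the same treated rats. As a group, treated ZDF rats were above WT rats in miR-375-3p (log2 difference 2.27, SE 0.64), miR-122-5p (2.31, SE 0.65) and miR-802-5p (2.42, SE 0.63), each with an FDR of 0.0786 by edgeR. For miR-122-5p the treated rats were split, at the levels given above. Rats 1 and 4 were near the mean of 194 CPM over the anti-sclerostin and placebo WT rats, and rats 2 and 3 far above it. MiR-145-5p was at 2968 ± 342 CPM (SD, n = 4) in treated ZDF rats and 3532 ± 780 CPM (SD, n = 5) in placebo WT rats, a log2 difference of -0.21 (SE 0.31, FDR 0.783 by edgeR), which does not show that the levels are alike. MiR-126a-3p (-1.36, SE 0.40, FDR 0.0788) and miR-143-3p (-1.46, SE 0.53, FDR 0.168) were below the WT placebo level, and miR-130a-3p (1.25, SE 0.34, FDR 0.0786) and miR-138-5p (1.26, SE 0.47, FDR 0.176) above it, all by edgeR. MiR-29b-3p (0.80, SE 0.42, FDR 0.391) and miR-24-3p (0.55, SE 0.42, FDR 0.603) did not pass in that fit.

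In WT rats, 4 of 108 miRNAs (3.70%) were lower under anti-sclerostin and none passed in the other direction. They were miR-143-3p (log2 fold change -1.29, SE 0.39, FDR 0.155 by edgeR), miR-199a-3p (-2.03, SE 0.62, FDR 0.155), miR-451-5p (-1.99, SE 0.66, FDR 0.198) and miR-3473 (-1.83, SE 0.53, FDR 0.155). At an unadjusted p below 0.05 there were 15 of the 108 (13.9%), and in 3 (2.78%), all higher, the groups did not overlap. With no floor on abundance 0 of 171 passed by edgeR (18 at an unadjusted p below 0.05), and without treated WT rat 1 it was 0 of 183 (10 at an unadjusted p below 0.05). MiR-143-3p averaged 5276 ± 1682 CPM (SD, n = 4) in treated and 12849 ± 6038 CPM (SD, n = 5) in placebo WT rats. It was called without treated WT rat 4 or any placebo WT rat, but not without treated WT rat 1, 2 or 3. Nor was it called with read totals, with the size factors of DESeq2 or with DESeq2 itself. With read totals and without treated WT rat 2 or 3, just 9 to 12 miRNAs were tested. The other 6 miRNAs called in ZDF serum did not pass in WT serum. Their WT fold changes were -0.21 (SE 0.40) for miR-145-5p, -0.72 (SE 0.38) for miR-126a-3p, 0.51 (SE 0.32) for miR-130a-3p, 0.43 (SE 0.42) for miR-138-5p, 0.30 (SE 0.42) for miR-24-3p and -0.32 (SE 0.43) for miR-29b-3p. MiR-29b-3p had the opposite sign in WT rats, at less than its standard error from 0.

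**Figure D4:**
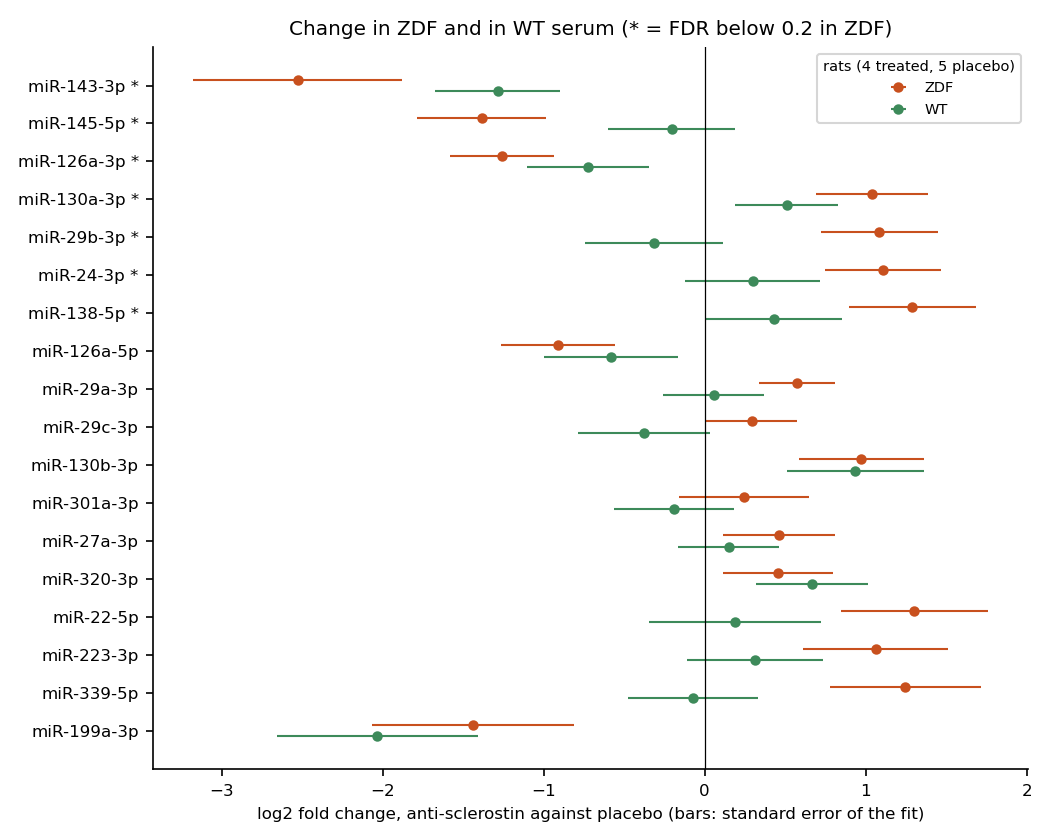
Log2 fold change under anti-sclerostin (points) with its standard error (bars) in ZDF (orange) and WT (green) serum for 18 miRNAs, those at FDR below 0.2 in ZDF serum marked by an asterisk. MiR-143-3p lies below 0 in both genotypes, at -2.53 and -1.29, whereas miR-29b-3p is at 1.09 in ZDF and -0.32 in WT serum.

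The response itself was then compared between the genotypes by an interaction term over 18 libraries. None of 189 miRNAs passed an FDR of 0.2 by edgeR, and 4 (2.12%) had an unadjusted p below 0.05, 3 of them (1.59%) with the higher response in ZDF rats. MiR-29b-3p had the lowest p, with a difference between the responses of 1.40 (SE 0.51, unadjusted edgeR p 0.0121, FDR 0.822). MiR-145-5p differed by -1.14 (SE 0.55) and miR-143-3p by -1.20 (SE 0.74), both with an FDR of 0.822 by edgeR. A response particular to ZDF rats was therefore not detected with 4 and 5 rats per group.

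Ulna bone of placebo ZDF rats (n = 4) gives the levels of these miRNAs in bone with its marrow and vessels. The series holds no bone libraries of anti-sclerostin rats. MiR-143-3p was at 37419 to 81946 CPM and miR-126a-3p at 17194 to 24290 CPM in bone, above every ZDF serum rat except placebo rat 1, whose miR-143-3p lay within the range of bone. MiR-145-5p was at 3423 to 9485 CPM. Of the 4 miRNAs that rose in serum, 3 were at lower levels in bone: miR-24-3p at 3854 to 7666 CPM, miR-130a-3p at 582 to 947.5 CPM and miR-138-5p at 105 to 177 CPM, all below every serum rat described here. The other, miR-29b-3p, was at 234 to 947.5 CPM in bone, within its range in serum. Levels in bone were scaled to the miRNA reads of each bone library and the tissues were not tested against each other.

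**Figure D5:**
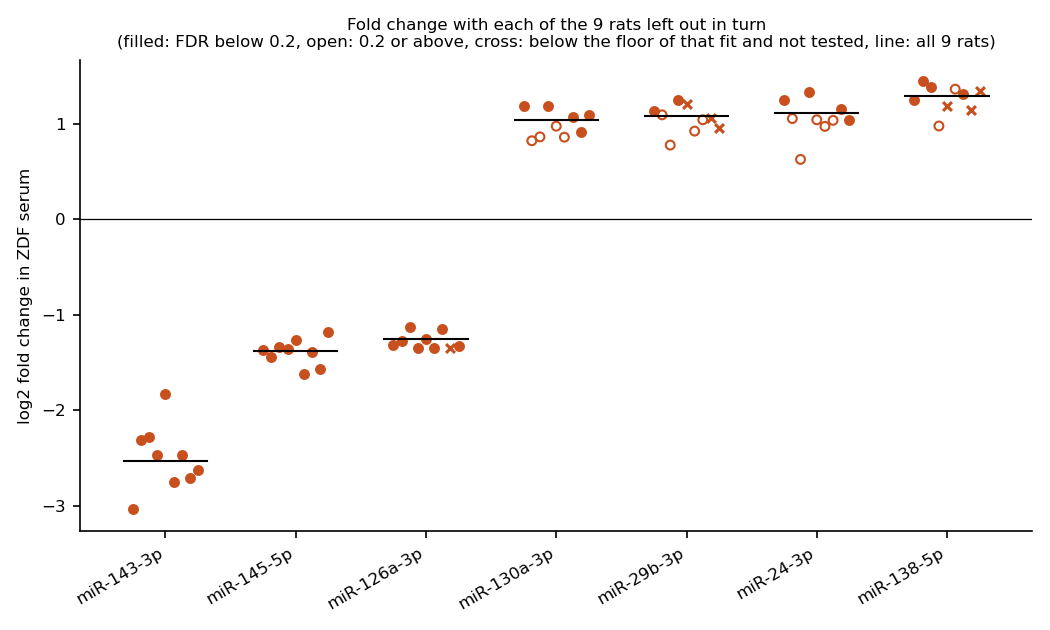
Log2 fold change in ZDF serum of the 7 miRNAs with each of the 9 rats left out in turn, filled where the FDR stayed below 0.2, open where it did not, a cross where the miRNA lay below the abundance floor of that fit and was not tested, and the value over all 9 rats as a line. MiR-143-3p and miR-145-5p are filled in 9 of 9 and miR-126a-3p in 8 of 9, and the 4 miRNAs that rose are filled in 2 to 5 of 9.

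The abundance floor was set anew with each rat left out, and 38 to 157 miRNAs were then tested. With each rat left out in turn, miR-143-3p ranged from -3.04 to -1.83 and miR-145-5p from -1.62 to -1.18, both below the threshold in 9 of 9 fits. Their FDR came close to it, at 0.198 for miR-143-3p without treated rat 2 and 0.1999 for miR-145-5p without treated rat 3. Each floor was the one with most calls, and with no floor miR-145-5p had an FDR of 0.226 by edgeR over all rats. MiR-126a-3p ranged from -1.35 to -1.13 and passed in 8. In the ninth, without placebo rat 4, it was at -1.35 (SE 0.35, unadjusted edgeR p 0.00245) but below the floor and not tested. Of the miRNAs that rose, miR-130a-3p (0.82 to 1.19) passed in 5 of 9 fits and miR-24-3p (0.63 to 1.34) in 4. MiR-138-5p (0.98 to 1.45) passed in 4 and miR-29b-3p (0.78 to 1.25) in 2 of the 6 fits that tested them. Both lay below the floor without placebo rat 1, 4 or 5. The fold changes of miR-143-3p thus spread the most, and it was below the threshold in every fit. Without placebo rat 1, and likewise without placebo rat 2, the 3 that fell were the only miRNAs to pass, of 52 and 117 tested. With the hemolysis ratio as a covariate 4 passed, the 3 that fell and miR-138-5p. At the stricter FDR of 0.05, 0 of the 130 passed by edgeR.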

How the data were processed

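Small RNA from serum was sequenced by the authors with a kit for biofluids. They trimmed the reads with cutadapt, mapped them with Bowtie to the rat genome and then to rat miRNAs with up to 1 mismatch, and deposited whole-number counts of reads per mature miRNA, not normalized. RPM values relative to the whole library, likewise deposited by the authors, served here to compute library totals. Their column relative to miRNA reads was not used. Groups came from the deposited labels.

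EdgeR 4.0.16 under R 4.3.3 gave the quasi-likelihood tests (legacy = TRUE, robust = FALSE, TMM), each fitted on the compared groups alone. FilterByExpr removed low counts, and independent filtering on mean CPM (50 quantiles up to 0.95) then kept the floor with most miRNAs at FDR < 0.2, a threshold chosen among floors by its number of calls. Standard errors were derived from the fold change and the F statistic. Levels are TMM CPM, and levels in bone are CPM without TMM. Single miRNAs were also compared by two-sided exact permutation of mean log2(CPM + 1) in scipy 1.17.1, where 4 against 5 rats cannot go below 0.0159. With every miRNA of at least 1 read in the fit, 24 of 299 passed, and filterByExpr was preferred because that fit shared a single spread over all miRNAs. DESeq2 1.42.0 was an alternative, and the other alternatives are listed with their effect in the closing section.

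The miRNAs reported by name were those at FDR < 0.2, those the study labels for this and for the ZDF against WT comparison, up to 5 further ones with at least 100 CPM whose groups did not overlap, the 5 most abundant, and members of marker and pathway lists. The 6 next by p, miR-3473 and the miRNAs that split the treated rats were named after their values were seen. The members, the lists and the choice of filter were made with earlier results of these data known. In all 16 pairs of libraries from the same ZDF serum group, counts differed by more than counting noise (chi-squared over its degrees of freedom 12.7 or more). Bone libraries of other groups, PTH and insulin serum were not compared here.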

Additional observations from a re-analysis of the deposited data

Results flagged for a closer look

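Of 88 groups of rat values of single miRNAs and library measures, 3 held an animal far from the rest, where chance gives about 1 in 20. In placebo ZDF serum, replicate 1 had 50613 CPM of miR-16-5p, the lowest of the group and next to 78090 CPM. The same rat had 529 CPM of miR-339-5p, again the lowest and next to 958 CPM. In anti-sclerostin ZDF serum, replicate 1 had 242 CPM of miR-199a-3p, the highest of the group and next to 53.0 CPM.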

How the results depend on the processing

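The count of 7 miRNAs at FDR < 0.2 in ZDF serum became 0 at FDR < 0.05 (edgeR, 13 of the 130 at an unadjusted p below 0.05), 2 with no independent filtering, 2 with extraction controls as size factors, 4 with the hemolysis ratio as a covariate, 24 with every miRNA of at least 1 read in the fit (10 higher, 14 lower, 5 of the 7 among them) and 13 with DESeq2 (9 higher, 4 lower, all 7 among them). It was 10 with the size factors of DESeq2 in edgeR, 8 with legacy = FALSE and 7, the same miRNAs, with read totals or robust = TRUE. With all 7 serum groups in the fit it was 7 with 6 shared: miR-29b-3p was lost (FDR 0.217) and miR-339-5p gained. With single rats left out it ranged from 3 (without placebo rat 1 or 2) to 32 (without treated rat 1), and was 4 without treated rat 2. All 7 fold changes kept their sign in the 17 settings that can move a fold change. Without placebo rat 1, 4 or 5, miR-138-5p and miR-29b-3p lay below the floor of the fit and were not tested, nor was miR-126a-3p without placebo rat 4. With the hemolysis ratio as a covariate, miR-24-3p was at 0.71, miR-130a-3p at 0.68 and miR-29b-3p at 1.04, none of them called. Extraction controls moved the median fold change of all miRNAs in the fit from 0.12 to 0.55. Of 27 miRNAs then tested, miR-143-3p (-1.91) and miR-24-3p (1.60) were called. MiR-126a-3p (-0.94, SE 0.64, unadjusted edgeR p 0.148) and miR-145-5p (-0.87, SE 0.62, unadjusted edgeR p 0.169) lay below that floor and were not tested. So did miR-130a-3p (1.44, unadjusted edgeR p 0.0260) and miR-138-5p (1.65, unadjusted edgeR p 0.0149). In WT serum the count of 4 was 2 with the size factors of DESeq2, 1 with read totals, 27 with extraction controls (median fold change -0.86, from -0.11), 17 with every miRNA of at least 1 read, 0 with no independent filtering (18 of 171 at an unadjusted p below 0.05) and 3 with DESeq2, and 0 (without treated WT rat 1) to 14 (without placebo WT rat 1) with single rats left out. It was 9 without placebo WT rat 2, 2 without placebo rat 3 or 4 or treated rat 2 or 3, and 1 without placebo rat 5. For the difference between genotypes, the count of 0 was 10 with extraction controls, all toward a higher response in ZDF rats (median 1.51, from 0.27), 3 with every miRNA of at least 1 read, and 0 to 1 with single rats left out (1 without placebo WT rat 1 or treated WT rat 2). Why these settings change the counts was not tested. Leaving out single rats turned the sign of 4 library measures, whose log2 differences ranged from -0.704 to 0.105 (miRNA reads), -0.368 to 0.460 (miRNA share), -0.11 to 0.0328 (detected miRNAs) and -0.0826 to 0.0255 (share of the top 5). No paired analysis was possible because treated and placebo animals were different rats, and the replicate numbers pair none of them. Depth limits what can be seen for miRNAs with few reads, whereas the floor of 234 CPM was set by the number of calls.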
